A study of Mus musculus with 19 samples.

Results

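The cytosolic ribosome is built from ribosomal RNA and a fixed set of proteins. The genes described here are those whose symbol is Rpl, Rps or Rplp followed by a number and at most 1 letter of a, x, l or y. This name rule found 80 genes among the 23951 genes of each of 2 deposited tables: 43 of the large subunit, 29 of the small subunit, 3 of the P-stalk and 5 paralogs whose symbols end in l. Values are FPKM, a level that is corrected for transcript length and for the number of fragments mapped in a library. They come from RNA sequencing of microglia sorted from mouse hippocampus by CD11b and CD45. There were 15 libraries in 5 groups of 3, and each table was treated on its own.

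The 3-month table holds libraries labelled PU.1 cKO (conditional knockout), from PU.1 fl/fl; Cx3cr1CreER+/- mice, and libraries labelled control, from Cx3cr1CreER+/- mice. All of these mice were 3 months old and were collected 1 week after a course of tamoxifen (50 mg/kg, 5 days). The 4.5-month table holds CK-p25 PU.1 cKO (CK-p25; Cx3cr1CreER+/-; PU.1 fl/fl), CK-p25 (CK-p25; Cx3cr1CreER+/-) and CK (littermates with CK and Cx3cr1CreER+/-). These mice received the same tamoxifen course as p25 was induced, and tissue was taken 6 weeks later, at 4.5 months. In CK-p25 mice forebrain neurons can be induced to make p25, an activator of Cdk5, and then degenerate. PU.1, encoded by Spi1, is a transcription factor that myeloid cells need to develop. All 5 groups carry the tamoxifen-dependent Cre recombinase under Cx3cr1, a gene that other myeloid cells, such as border macrophages, express as well as microglia. Nothing in the labels says that each library is a mouse of its own. The p-values below therefore measure only the spread between these libraries, which may be technical.

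Ribosomal proteins are made in matched amounts because each is needed once per ribosome, apart from the acidic P-stalk proteins, which are present as dimers. Their mRNAs are among the most abundant of a cell, and most begin with a C followed by a run of pyrimidines, the 5' terminal oligopyrimidine (TOP) sequence. Through it the mTOR kinase pathway and the protein LARP1 set how strongly these mRNAs are translated and how long they are kept. Microglia turn over slowly in the healthy brain and enlarge and divide when neurons degenerate, a state in which protein synthesis is needed. Many ribosomal protein genes have processed pseudogenes elsewhere in the genome, which share their sequence, and several have very short mRNAs. How reads matching several places were counted is not given in the sources used here, so the level of any single short or multi-copy gene is uncertain.

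The start regions of 6 members that recur in the results below are shown to let the shared start sequence be seen. Rps6 encodes the ribosomal protein phosphorylated by S6 kinase, and Rpl12, Rpl35, Rps18, Rpl38 and Rpl41 are among the largest differences described below. Each window runs from 70 bases before to 20 bases after the annotated start, is written 5' to 3' along the gene, and comes from RefSeq on GRCm38.p6. Capitals mark a pyrimidine run that begins with a C within 10 bases of the start and holds at least 4 more pyrimidines on the gene's strand, or a match to GAGGAAGT (the core that PU.1 prefers) or CCGGAAGT (the core of GABP and related factors) on either strand.
Rps6: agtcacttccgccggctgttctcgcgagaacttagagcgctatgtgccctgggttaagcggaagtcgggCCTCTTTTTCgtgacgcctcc
Rpl12: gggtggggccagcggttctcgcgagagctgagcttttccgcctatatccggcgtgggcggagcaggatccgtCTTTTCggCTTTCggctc
Rpl35: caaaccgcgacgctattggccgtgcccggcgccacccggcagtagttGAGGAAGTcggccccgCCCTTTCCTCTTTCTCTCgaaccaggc
Rps18: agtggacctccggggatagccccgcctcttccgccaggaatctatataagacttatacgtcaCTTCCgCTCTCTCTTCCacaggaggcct
Rpl38: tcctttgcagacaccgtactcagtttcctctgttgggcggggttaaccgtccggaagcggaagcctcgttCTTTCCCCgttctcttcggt
Rpl41: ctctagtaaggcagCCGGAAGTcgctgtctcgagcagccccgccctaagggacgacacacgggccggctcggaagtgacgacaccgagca

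The Rps6 window is chr4:86857348-86857437 on the minus strand. The Rpl12 window is chr2:32961642-32961731 on the plus strand. The Rpl35 window is chr2:39005112-39005201 on the minus strand. The Rps18 window is chr17:33955646-33955735 on the minus strand. The Rpl38 window is chr11:114668510-114668599 on the plus strand. The Rpl41 window is chr10:128549149-128549238 on the minus strand. All 6 lie across a transcription start, with the last 20 bases in the first exon. Start windows of 300 bases, from 250 before to 50 after the start, were matched for 59 of the 80 members, in 71 windows. A pyrimidine run of the kind defined above stood at the start in 40 of the 71 windows, 56.3%, against 30.7% of all 32851 mouse windows. The Rpl41 window held none by this definition. CCGGAAGT, read on both strands, occurred in 15.5% of the members' windows and in 3.89% of all windows. GAGGAAGT, read the same way, occurred in 3 members' windows (Rpl13a, Rpl35 and Rpl36a), 4.23%, against 3.20% of all windows. AAGATGG, the core bound by YY1, occurred in 15.5% of the members' windows and in 6.34% of all windows. On the opposite strand CCGGAAGT and GAGGAAGT are rich in pyrimidines and can overlap a pyrimidine run. A match is a description of the letters and does not show that a factor binds there.

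The libraries were checked before the members were read. All 12 microglial markers examined, among them P2ry12, Tmem119 and Csf1r, were expressed in all 5 groups, and their summed level was between 14146 and 52267 FPKM. For the 3-month libraries, titles and descriptions tie the columns to one genotype and source names to the other. The column names go against the titles as well. Columns read as labelled PU.1 cKO are named MIC_CX3CR1, and those read as labelled control are named MIC_PU1. Spi1 measured 409, 338 and 337 FPKM in labelled PU.1 cKO libraries and 261, 105 and 248 FPKM in labelled control libraries, so the gene to be deleted was listed higher under the knockout label (log2 difference 0.92 ± 0.35 SE, adjusted p = 0.0853, limma). Titles and descriptions were followed here, and the other reading of the labels would turn the sign of every 3-month difference below. At 4.5 months Spi1 averaged 180 ± 38.5 FPKM in the CK-p25 PU.1 cKO libraries, 252 ± 45.1 FPKM in CK-p25 and 246 ± 14.1 FPKM in CK (SD, n = 3 each). Neither difference of the PU.1 cKO group passed the threshold (adjusted p = 0.745 against CK-p25 and 0.0751 against CK, limma). CK-p25 replicate 3 stood apart: it was the only library of its sequencing run, and 42.1% of all genes were listed at 0 in it, against 31.6% to 36.4% in the other libraries of that table. Results that rest on it are given with and without it.

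Of the 80 members, 77 reached a mean of 1 FPKM in each table and were tested. The other 3 were the paralogs Rpl10l, Rpl3l and Rpl39l, which in the mouse are mainly expressed in testis or muscle. Rpl10l was listed at 0 in all 15 libraries, Rpl3l reached at most 0.279 FPKM and Rpl39l at most 1.06 FPKM. At the other end, Rpl13 had the highest mean level at 3 months, and Rps29, Rpl41 and Rpl13 at 4.5 months. A mean of 100 FPKM was reached by 41 members at 3 months and by 58 at 4.5 months. The members kept nearly the same order of mean levels in all groups of a table: Spearman's rho over 77 members was 0.96 between the 3-month groups and 0.96 to 0.98 between the 4.5-month groups. This is a description across genes that share library and gene length, and genes are not independent replicates.

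Together the members held a small and variable share of the summed FPKM of a library. At 3 months the share was 0.655%, 0.833% and 0.931% in labelled PU.1 cKO libraries, against 2.07%, 2.58% and 3.53% in labelled control libraries. At 4.5 months the CK-p25 PU.1 cKO libraries had 3.86%, 3.36% and 3.95%, the CK-p25 libraries 3.69%, 3.46% and 1.74%, and those of CK 1.60%, 1.53% and 1.74%. The 3-month groups did not overlap, and CK lay below CK-p25 PU.1 cKO in all libraries, while CK-p25 replicate 3 lay level with the highest CK library. In RNA from a bulk sample, fewer cells of a type that is rich in these mRNAs and less of the mRNA per cell cannot be told apart.

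**Figure D1:**
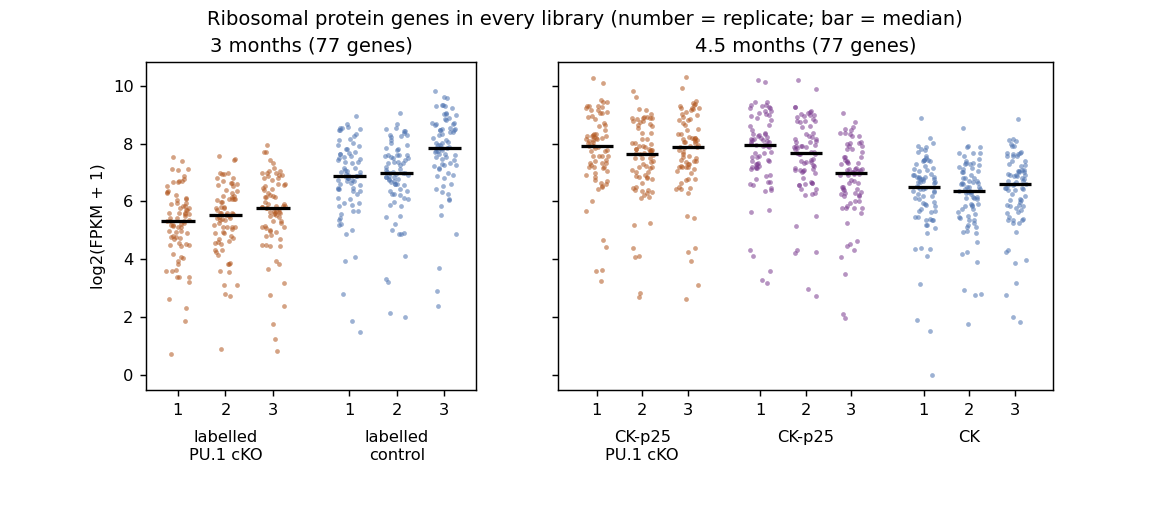
Levels of the 77 tested ribosomal protein genes in every library, as log2(FPKM + 1), with 1 point a gene and a bar at the median. The bars of the 3 libraries labelled PU.1 cKO lie below those of all 3 labelled control libraries, and CK-p25 replicate 3 lies between the other CK-p25 libraries and the CK libraries.

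The first comparison asked how the members differed at 3 months between the libraries labelled PU.1 cKO and labelled control. The ribosomal protein genes were lower in labelled PU.1 cKO libraries almost without exception. Of the 77 tested, 73 were lower and 0 higher past an adjusted p of 0.05 (limma on log2(FPKM + 1), Benjamini-Hochberg over all 10845 genes tested), where 17.8% of all genes tested were called lower and 12.4% higher. The median log2 difference was -1.69, or 3.24-fold lower on that scale, with quartiles of -1.95 and -1.50, beside a median of -0.03 over all genes. The libraries of the groups did not overlap for 74 members, all lower, against 26.9% of all genes in that direction. Both subunits moved alike: 41 of 43 large subunit genes fell with a median of -1.69, 28 of 29 small subunit genes with a median of -1.71, and all 3 P-stalk genes with a median of -1.65.

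The largest difference was that of Rpl30, a large subunit gene, at 9.39, 13.5 and 2.38 FPKM in labelled PU.1 cKO libraries, against 46.2, 28.5 and 79.7 FPKM in labelled control libraries (log2 difference -2.59 ± 0.58 SE, adjusted p = 0.0153). Its groups did not overlap, but its libraries were more spread than those of most members. Rpl12, which sits at the base of the stalk, measured 21.5, 24.0 and 31.7 FPKM in labelled PU.1 cKO libraries, against 121, 110 and 249 FPKM in labelled control libraries (-2.51 ± 0.33, adjusted p = 0.00228). Rpl41, whose protein is the smallest of the ribosome, measured 78.7, 97.9 and 133 FPKM in labelled PU.1 cKO libraries and 362, 413 and 640 FPKM in labelled control libraries (-2.17 ± 0.29, adjusted p = 0.00228). In both genes each library labelled PU.1 cKO was below each labelled control library, and labelled control replicate 3 was the highest. Rpl29, Rpl38, Rpl35 and Rpl32 were also among the 8 largest, with log2 differences between -2.07 and -2.14.

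Members with roles of their own followed the rest. Rps6 measured 73.5, 81.3 and 83.6 FPKM in labelled PU.1 cKO libraries, against 226, 192 and 414 FPKM in labelled control libraries (-1.71 ± 0.29, adjusted p = 0.00576). The P-stalk recruits the GTPase elongation factors, and its scaffold gene Rplp0 averaged 141 ± 16.1 FPKM in labelled PU.1 cKO libraries and 451 ± 162 FPKM in labelled control libraries (-1.62 ± 0.27, adjusted p = 0.00548). The acidic partners of Rplp0, Rplp1 and Rplp2, had log2 differences of -1.65 ± 0.36 and -1.83 ± 0.39 (adjusted p = 0.0146 and 0.0134). Rpl5 and Rpl11, whose proteins bind the p53 regulator Mdm2 when ribosome assembly is disturbed, had log2 differences of -1.64 ± 0.31 and -1.45 ± 0.27 (adjusted p = 0.00824 and 0.00749). Rps27a, which encodes a fusion of ubiquitin and a small subunit protein, had one of -1.71 ± 0.36 (adjusted p = 0.0127). Rps19, a gene mutated in Diamond-Blackfan anaemia in humans, had one of -2.06 ± 0.32 (adjusted p = 0.00401). The smallest of these named differences was that of Rpl10, which completes the large subunit late in assembly, at -1.12 ± 0.28 (adjusted p = 0.0217).

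The 4 members that did not pass were Rpl22, Rpl26, Rps27 and Rps4l. Rpl22, a large subunit gene whose loss is tolerated in mice, measured 2.66, 5.62 and 4.26 FPKM in labelled PU.1 cKO libraries, against 6.04, 8.21 and 11.9 FPKM in labelled control libraries, without overlap (-0.90 ± 0.31, adjusted p = 0.0605). Rps4l, a paralog of the X-linked Rps4x, measured 39.1, 33.9 and 34.7 FPKM in labelled PU.1 cKO libraries and 66.8, 28.5 and 44.8 FPKM in labelled control libraries, with overlap. The other tested paralog, Rps27l, did fall, to 60.1 ± 9.47 FPKM in labelled PU.1 cKO libraries, against 265 ± 136 FPKM in labelled control libraries (-2.02 ± 0.34, adjusted p = 0.00574). Rps27 was listed at 0.778 to 5.92 FPKM in all 6 libraries, far below its level in part of the 4.5-month libraries.

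Single libraries bore on the size and count of these calls. Labelled control replicate 3 was above the mean of the other 2 labelled control libraries for 76 of 77 members, with a median ratio of 1.92. Without it, 68 members were lower, with a median of -1.38, and Rpl30 did not pass. Without labelled PU.1 cKO replicate 2, 47 were lower, with a median of -1.69, and Rpl38, Rpl10, Rps27a, Rplp1 and Rplp2 were among the 26 that no longer passed. Calls over all genes swung as well: leaving out each library in turn gave 889 to 2678 genes lower, against 1925 with all libraries. Markers of other cells moved with the same groups. The summed microglial markers ran from 44092 to 52267 FPKM in labelled PU.1 cKO libraries and from 14146 to 27174 FPKM in labelled control libraries, with 9 of 12 genes higher. The summed markers of border macrophages ran from 261 to 335 FPKM in labelled PU.1 cKO libraries and from 474 to 1528 FPKM in labelled control libraries, with 4 of 6 lower. The monocyte sum ran from 7.07 to 39.7 FPKM in labelled PU.1 cKO libraries and from 48.8 to 952 FPKM in labelled control libraries, with 1 of 5 tested genes lower. The neutrophil sum reached 295 FPKM in labelled PU.1 cKO libraries and 13006 FPKM in labelled control replicate 1, against at most 95.6 FPKM in the other 2 labelled control libraries, with 0 of 5 genes passing. Astrocyte markers summed to between 63.1 and 71.4 FPKM in labelled PU.1 cKO libraries and between 15.4 and 31.2 FPKM in labelled control libraries, with Slc1a3 called higher. Of the 4 astrocyte genes tested, 2 had positive and 2 had negative differences. The 2 negative ones did not overlap between the groups, and 0 were called lower. Lymphocyte markers summed to between 51.0 and 67.6 FPKM in labelled PU.1 cKO libraries and between 12.5 and 20.9 FPKM in labelled control libraries, with Cd79b called higher. Endothelial markers summed to between 17.3 and 20.1 FPKM in labelled PU.1 cKO libraries and between 6.21 and 16.2 FPKM in labelled control libraries, with Pecam1 called higher. Oligodendrocyte markers summed to between 97.0 and 160.0 FPKM in labelled PU.1 cKO libraries and between 71.3 and 101 FPKM in labelled control libraries, with overlap and Mag called higher. Neuronal markers summed to at most 4.04 FPKM in any of these libraries. The part of these cells in the result was not tested.

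**Figure D2:**
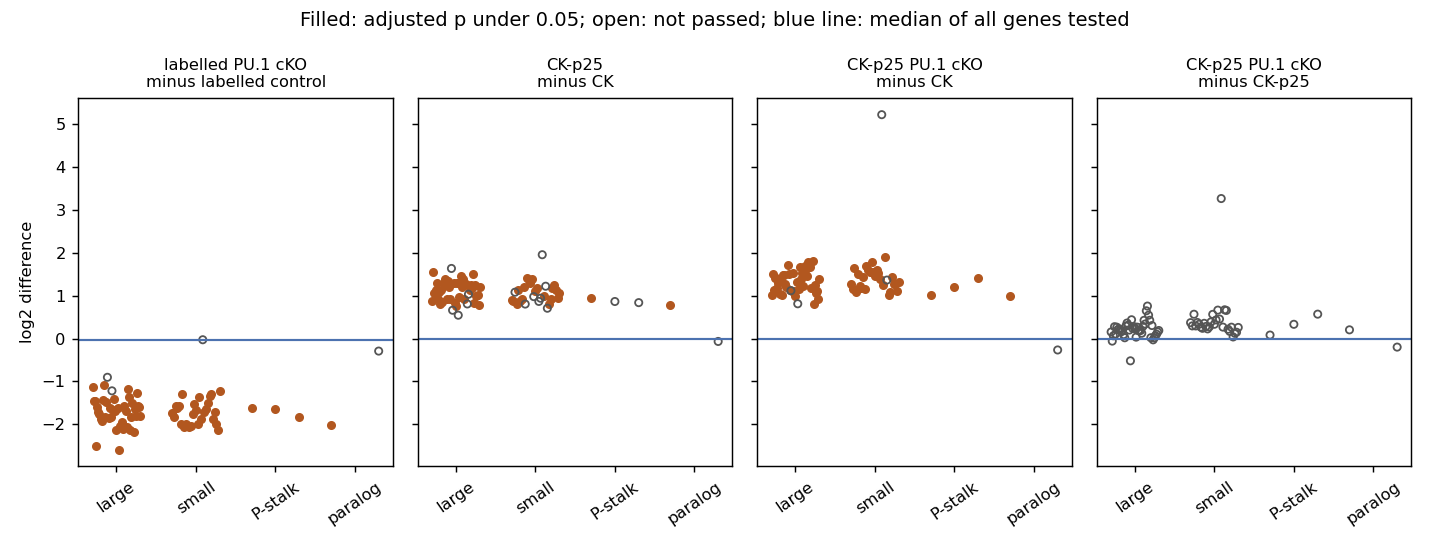
Log2 difference of each tested member in the 4 comparisons, by its place in the ribosome, with filled points past an adjusted p of 0.05 and a line at the median of all genes tested. At 3 months 73 of 77 points are filled and below the line, in CK-p25 minus CK 61 and in CK-p25 PU.1 cKO minus CK 72 are filled and above it, and in CK-p25 PU.1 cKO minus CK-p25 0 are filled.

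The second comparison asked how the members differed in CK-p25 mice, in which p25 had been induced 6 weeks earlier, from CK littermates. Most ribosomal protein genes were higher in CK-p25. Of the 77 tested, 61 were higher and 0 lower (limma, Benjamini-Hochberg over 10894 genes), where 17.6% of all genes tested were called higher and 13.7% lower. The median log2 difference was 1.06, or 2.09-fold higher on that scale, with quartiles of 0.87 and 1.25, beside a median of 0.00 over all genes. The 61 that passed included 38 of 43 large subunit genes, 21 of 29 small subunit genes, 1 of 3 P-stalk genes and the paralog Rps27l. The same number of members, 61, did not overlap between the groups, against 24% of all genes in that direction.

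Of the members, Rpl10a and Rps6 had the smallest adjusted p, and their 3 CK-p25 libraries lay close together. Rpl10a, a large subunit gene and the one that is tagged in mice made to purify ribosomes of a chosen cell type, measured 144, 125 and 120 FPKM in CK-p25, against 43.0, 39.7 and 47.5 FPKM in CK (log2 difference 1.56 ± 0.12 SE, adjusted p = 5.92e-05). Rps6 measured 209, 201 and 183 FPKM in CK-p25, against 81.9, 79.1 and 86.6 FPKM in CK (1.25 ± 0.09, adjusted p = 5.96e-05). Rpl35 measured 526, 465 and 381 FPKM in CK-p25, against 168, 158 and 189 FPKM in CK (1.40 ± 0.15, adjusted p = 0.000319). No CK-p25 library of these 3 genes came near the CK range. Rpl41 at 1.51 ± 0.33, Rpl32 at 1.46 ± 0.20 and Rps18, which lies at the head of the small subunit, at 1.42 ± 0.21 were, after Rpl10a, the largest of those that passed (adjusted p = 0.00913, 0.00105 and 0.0016). Rpl35, Rps20, Rpl19 and Rps19 completed the 8 largest.

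The members that did not pass were mostly those in which CK-p25 replicate 3 was far below its group. Rps29, a short small subunit gene, measured 1181, 1172 and 257 FPKM in CK-p25, against 470, 373 and 464 FPKM in CK, so that replicate 3 alone lay below every CK library (0.71 ± 0.53, adjusted p = 0.343). Rpl37a measured 650, 532 and 139 FPKM in CK-p25, against 171, 157 and 206 FPKM in CK (1.04 ± 0.50, adjusted p = 0.154). The acidic P-stalk gene Rplp2 measured 292, 242 and 85.6 FPKM in CK-p25, against 101, 89.7 and 116 FPKM in CK (0.84 ± 0.40, adjusted p = 0.146). In all 3 genes the first 2 CK-p25 libraries were above the CK libraries and the third was below them. The level of a member in CK-p25 replicate 3, divided by its mean in replicates 1 and 2, varied widely from gene to gene. It was 0.218 for Rps29, 0.235 for Rpl37a, 0.24 for Rps25 and 0.255 for Rps28. It was 0.896 for Rps6, 0.917 for Rpl4, 0.918 for Rpl6 and 1.00 for Rpl5, and its median over the 77 tested members was 0.58.

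Leaving out CK-p25 replicate 3, which confines the comparison to libraries of 1 sequencing run, gave 73 of 77 members higher with a median log2 difference of 1.31. All 61 members called with it were among them, and the 4 that did not pass were Rpl26, Rpl30, Rps27 and Rps4l. Rps29 then differed by 1.44 ± 0.17 (adjusted p = 0.000834), Rpl37a by 1.73 ± 0.17 (adjusted p = 0.000415) and Rplp2 by 1.38 ± 0.15 (adjusted p = 0.000574). The number of all genes called also depended on single libraries. It ran from 1385 to 2376 higher as each library was left out in turn, against 1922 with all libraries.

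**Figure D3:**
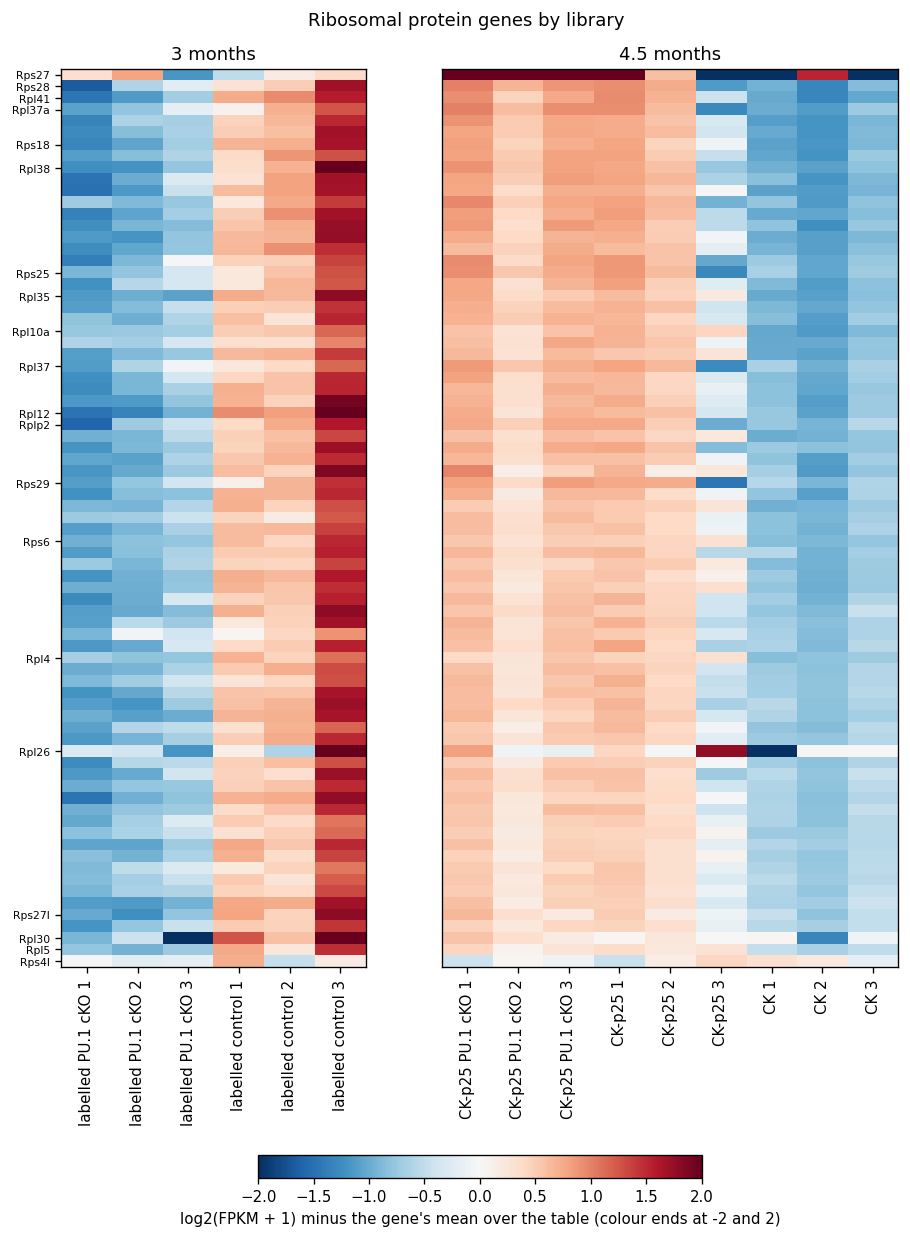
Level of each tested member in each library as log2(FPKM + 1) minus the gene's mean over its table, with genes as lines ordered by their difference between CK-p25 PU.1 cKO and CK, some of them named. CK-p25 replicate 3 is pale for most genes but deep blue for Rps29, Rpl37a, Rps25 and Rpl37, and Rps27, Rpl26 and Rps4l do not follow the pattern of the other genes.

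The third comparison set CK-p25 mice with the PU.1 cKO against CK. It shares its CK libraries with the comparison above, so the 2 results are not independent. Of the 77 members, 72 were higher and 0 lower in CK-p25 PU.1 cKO, where 17.8% of all 10894 genes tested were called higher and 13.3% lower. The median log2 difference was 1.32, or 2.50-fold higher on that scale, with quartiles of 1.13 and 1.52, beside a median of 0.00 over all genes. The count was 41 of 43 for the large subunit, 27 of 29 for the small subunit, 3 of 3 for the P-stalk and 1 of 2 for the tested paralogs. In 75 members the groups did not overlap and CK-p25 PU.1 cKO was higher, against 29.4% of all genes. Without CK-p25 replicate 3 in the shared fit, 74 members passed. As each library was left out in turn, 1455 to 2647 of all genes were called higher, against 1937 with all libraries.

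Rps28, a small subunit gene, measured 729, 582 and 670 FPKM in the CK-p25 PU.1 cKO libraries, against 188, 146 and 198 FPKM in CK (log2 difference 1.89 ± 0.48 SE, adjusted p = 0.0174), the largest difference past the threshold. Rpl41 measured 1105, 790 and 980 FPKM in the CK-p25 PU.1 cKO libraries, against 289, 234 and 287 FPKM in CK (1.82 ± 0.33, adjusted p = 0.00385). Rpl37a measured 687, 523 and 652 FPKM in the CK-p25 PU.1 cKO libraries, against 171, 157 and 206 FPKM in CK (1.79 ± 0.50, adjusted p = 0.0271). In each of these genes the lowest CK-p25 PU.1 cKO library, replicate 2, was still more than the highest CK library. Rps20, Rpl23, Rps18, Rpl36 and Rpl38 followed, with log2 differences from 1.78 to 1.69. Rpl38, which in mice is needed for the translation of Hox mRNAs, measured 546, 424 and 508 FPKM in the CK-p25 PU.1 cKO libraries, against 149, 138 and 167 FPKM in CK (1.69 ± 0.35, adjusted p = 0.00777). Rps6 averaged 203 ± 18.5 FPKM in CK-p25 PU.1 cKO and 82.6 ± 3.80 FPKM in CK (SD, n = 3 each; 1.29 ± 0.09, adjusted p = 5.32e-05).

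Within CK-p25 PU.1 cKO, replicate 2 was below the mean of the other 2 CK-p25 PU.1 cKO libraries for 76 of 77 members, with a median ratio of 0.804. Rps25, used by some viral and cellular mRNAs to start translation without a cap, measured 625, 477 and 549 FPKM in the CK-p25 PU.1 cKO libraries, against 210, 159 and 200 FPKM in CK (1.53 ± 0.49, adjusted p = 0.0467). Rpl13a, which takes part in the silencing of inflammatory mRNAs when it leaves the ribosome, averaged 133 ± 18.9 FPKM in CK-p25 PU.1 cKO and 57.7 ± 4.95 FPKM in CK (1.19 ± 0.24, adjusted p = 0.00652). Rps3, which has a further role in DNA repair, averaged 175 ± 22.3 FPKM in CK-p25 PU.1 cKO and 85.6 ± 5.68 FPKM in CK (1.02 ± 0.20, adjusted p = 0.00605).

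The 5 members that did not pass were Rpl26, Rpl30, Rps27, Rps29 and Rps4l. Rps27, Rps29 and Rpl30 did not overlap between the groups (adjusted p = 0.069, 0.085 and 0.0874, limma). Rps4l measured 11.5, 16.2 and 14.6 FPKM in the CK-p25 PU.1 cKO libraries, 11.2, 17.6 and 21.3 FPKM in CK-p25, and 19.5, 18.1 and 13.8 FPKM in CK, and all 3 groups overlapped. Rps27 measured 391, 394 and 661 FPKM in the CK-p25 PU.1 cKO libraries, 288, 99.2 and 2.95 FPKM in CK-p25, and 1.90, 188 and 2.56 FPKM in CK. As log2(FPKM + 1), the levels of Rps27 ranged more widely within CK-p25 and within CK than those of any other tested member. Its difference between CK-p25 PU.1 cKO and CK carried a wide interval (5.23, 95% interval 0.88 to 9.57, adjusted p = 0.069, limma). Rpl26 was listed at 0.000475 FPKM in CK replicate 1 and at 5.96 and 5.83 FPKM in replicates 2 and 3. Rps15a, a core small subunit gene, was listed at only 0.642 to 8.88 FPKM over all 15 libraries.

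**Figure D4:**
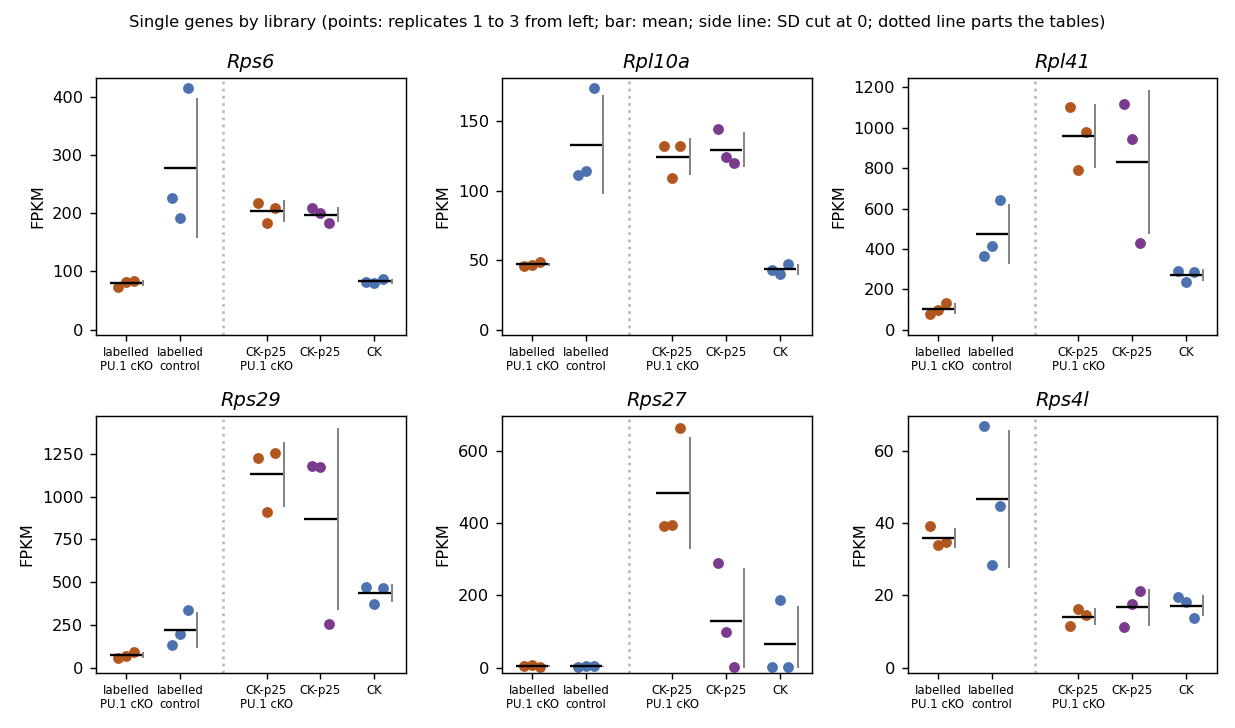
FPKM of 6 members in every library, with the mean as a bar and the SD as a side line. Rps6 and Rpl10a separate CK from both CK-p25 groups in every library, Rps29 has 1 low CK-p25 library at 257 FPKM, and Rps27 and Rps4l do not separate the groups in that way.

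The fourth comparison asked whether the PU.1 cKO changed the members within CK-p25. None of the 77 passed the threshold in CK-p25 PU.1 cKO minus CK-p25 (limma). The same holds for all genes, 0% of which were called, while 6.16% had an unadjusted p under 0.05. Of the 77 members, 0 had an unadjusted p under 0.05. The median log2 difference of the members was 0.27, with 73 of 77 above 0, and it was -0.01 without CK-p25 replicate 3, with 33 above 0. Rps27 was the only member whose groups did not overlap, against 4.82% of all genes in that direction (log2 difference 3.27 ± 1.89, adjusted p = 0.745). Rps14 at 0.38 ± 0.24 and Rpl38 at 0.55 ± 0.35 had the next smallest p above 0, and Rps4l, Rpl26 and Rpl10a the smallest below it, at -0.20 ± 0.23, -0.52 ± 0.78 and -0.06 ± 0.12. These 6 did not pass.

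The intervals limit how large a difference these libraries leave room for. With all 9 libraries, the 95% interval lay within a log2 difference of 1 either way for 56 of 77 members and within 0.5 for 15. Without CK-p25 replicate 3, it lay within 1 for 74 members and within 0.5 for 69. Rps6 differed by 0.04, with an interval from -0.18 to 0.25, and by -0.01 without that library, with an interval from -0.22 to 0.19. Rpl37a differed by 0.76, from -0.39 to 1.91, and by 0.07 without it, from -0.33 to 0.46. A p above the threshold does not show that the groups were alike.

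At 4.5 months the 12 microglial markers summed to between 35615 and 41603 FPKM in the CK-p25 PU.1 cKO libraries, between 38662 and 43858 FPKM in CK-p25 and between 37051 and 39421 FPKM in CK. Single markers differed in both directions: in CK-p25 minus CK, P2ry12 had a log2 difference of -2.12 ± 0.14 and C1qb of 1.13 ± 0.16. Border macrophage markers summed to between 86.2 and 386 FPKM in the CK-p25 PU.1 cKO libraries, between 87.2 and 146 FPKM in CK-p25 and between 6.49 and 310 FPKM in CK, and 0 of 6 passed in any 4.5-month comparison. Monocyte markers summed to between 35.2 and 56.2 FPKM in the CK-p25 PU.1 cKO libraries, between 17.4 and 50.7 FPKM in CK-p25 and between 3.87 and 18.0 FPKM in CK, with Fn1 the 1 gene that passed against CK. Astrocyte markers summed to between 89.98 and 185 FPKM in the CK-p25 PU.1 cKO libraries, between 84.9 and 298 FPKM in CK-p25 and between 47.2 and 66.1 FPKM in CK, and neither CK-p25 group overlapped CK. Gfap was called higher against CK in both, and Aldh1l1 in CK-p25 PU.1 cKO. Endothelial sums overlapped, at 9.04 to 23.3 FPKM over the 9 libraries, while Flt1 and Kdr were called higher and Pecam1 lower in both CK-p25 groups. Oligodendrocyte markers summed to between 137 and 390 FPKM in the CK-p25 PU.1 cKO libraries, between 115 and 553 FPKM in CK-p25 and between 125 and 192 FPKM in CK, with Cnp called higher in CK-p25. Lymphocyte markers summed to between 3.89 and 45.3 FPKM in the CK-p25 PU.1 cKO libraries, between 19.4 and 23.9 FPKM in CK-p25 and between 28.7 and 34.4 FPKM in CK, with Cd79b called lower in CK-p25 PU.1 cKO. The other 3 of the 4 lymphocyte genes tested had positive differences from CK there, and 0 were called higher. Neutrophil markers summed to at most 770 FPKM with 0 called, and neuronal markers to at most 34.2 FPKM. The part of any of these cells in the members' levels was not tested.

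Other genes of the translation machinery are given by list, to be read against the share of all genes called in the members' direction: 17.8% lower at 3 months, 17.6% higher in CK-p25 and 17.8% higher in CK-p25 PU.1 cKO. The lists, like the members, were chosen with earlier results of these data known. Ribosomal proteins whose symbols the name rule misses (Rpsa, Fau and Gnb2l1 among 7 genes) were lower for 6 of 7 in labelled PU.1 cKO libraries, with a median of -1.83. They were higher for 6 of 7 in CK-p25 (median 1.05) and for 6 of 7 in CK-p25 PU.1 cKO (median 1.01), both against CK. Gnb2l1, which encodes the small subunit scaffold protein RACK1, averaged 98.1 ± 15.1 FPKM in CK-p25 and 53.5 ± 4.17 FPKM in CK (SD, n = 3 each; log2 difference 0.85 ± 0.13 SE, adjusted p = 0.0019).

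All 7 elongation factors were lower in labelled PU.1 cKO libraries (median -1.28), and 6 of 7 were higher in CK-p25 (median 0.72) and in CK-p25 PU.1 cKO (median 0.90) than in CK. Eef1a1, which brings aminoacyl-tRNA to the ribosome and whose mRNA also has a TOP sequence, averaged 1260 ± 145 FPKM in the CK-p25 PU.1 cKO libraries, 1115 ± 363 FPKM in CK-p25 and 434 ± 16.9 FPKM in CK. Initiation factors were lower for 15 of 28 genes at 3 months (median -0.86), and higher for 10 of 28 in CK-p25 (median 0.31) and in CK-p25 PU.1 cKO (median 0.29). Pabpc1, the poly(A)-binding protein, had the largest difference among them in CK-p25, 1.36 ± 0.11 (adjusted p = 8.5e-05).

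Ribosome biogenesis genes, which make and assemble the subunits in the nucleolus, were lower for 14 of 30 genes at 3 months (median -0.75). In CK-p25 7 of 30 were higher (median 0.13), and in CK-p25 PU.1 cKO 5 were higher and 1 lower (median 0.09), shares near those of all genes. The nucleolar chaperone gene Npm1 was higher in both, with log2 differences of 1.17 ± 0.08 and 1.18 ± 0.08 (adjusted p = 4.7e-05 and 4.9e-05). Mitochondrial ribosomal proteins were lower for 34 of 77 genes at 3 months (median -0.77), and 21 were higher and 5 lower in CK-p25 (median 0.18). In CK-p25 PU.1 cKO 21 were higher and 2 lower than in CK (median 0.14). Subunits of the proteasome, another large complex, were lower for 21 of 38 at 3 months (median -0.83), and higher for 9 in CK-p25 (median 0.20) and for 5 in CK-p25 PU.1 cKO (13.2%, median 0.10), the last below the share of all genes.

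**Figure D5:**
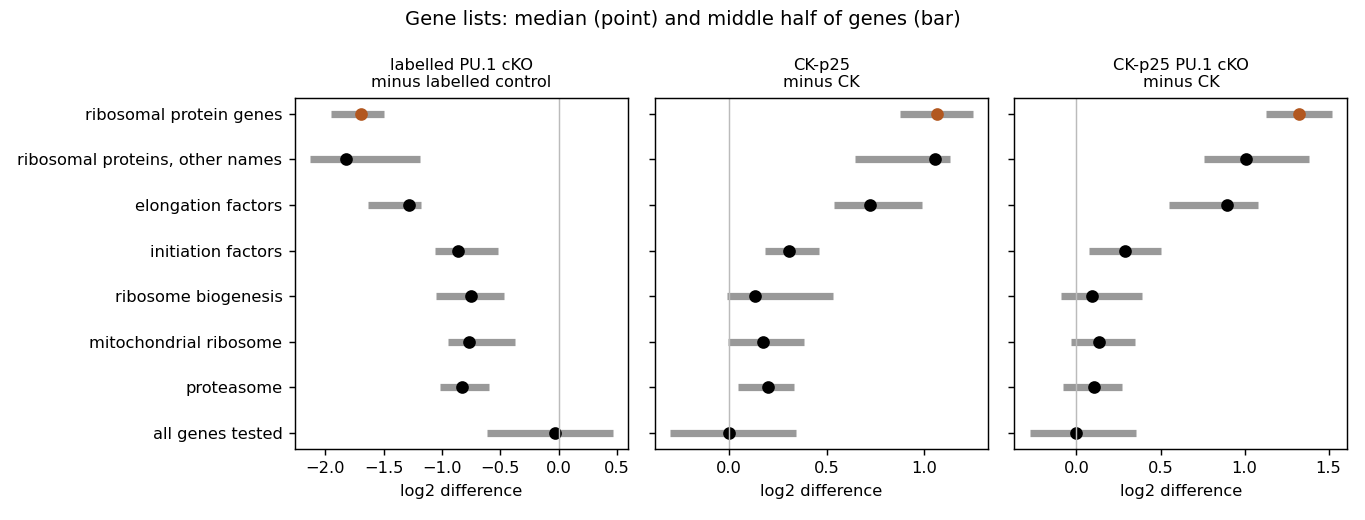
Median log2 difference (point) and quartiles (bar) of the members and of related gene lists in the 3 comparisons with differences, each on its own axis. The members' median of -1.69, 1.06 and 1.32 lies farther from that of all genes than the medians of the initiation, biogenesis, mitochondrial ribosome and proteasome lists.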

How the data were processed

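RNA of FACS-sorted hippocampal microglia was purified with a QIAGEN kit and made into libraries with SMART-Seq v4 and Nextera XT, per the labels' protocols; these kits do not mark strand. The authors deposited FPKM values per gene in 2 tables. TopHat, Bowtie, Cufflinks 2.0.0 and the build mm9 are named in the submitters' processing notes, with no settings, so the depth of each library is unknown. The 4 ChIP samples of the series were not analysed here.

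Each table was tested on its own, since the tables were normalized separately. Values became log2(FPKM + 1), genes with a mean under 1 FPKM were left out, and limma 3.58.1 (R 4.3.3) with a trended variance was fitted over all groups of a table. P-values are two-sided and Benjamini-Hochberg adjusted over all genes tested, with a threshold of 0.05. Fold changes on this scale understate those of low genes. Named genes are, per comparison, the 8 largest differences past the threshold (or, where fewer than 3 passed, the 3 with the smallest p in each direction), the P-stalk genes, the paralogs, 11 members with a known further role or site, and the 3 highest and 3 lowest members of a table; Rpl4, Rpl6, Rps15a, Ddit3 and the members that did not pass were named after their values were seen. Some genes that meet this rule are not reported here. From other lists, up to 3 genes with the smallest p are named. Members and lists were chosen with earlier results of these data known. The procedure was tested on simulated data. Alternatives were another pseudocount (0.1), other filters, other centring, a fit of only the compared groups, a replicate block and leaving out each library.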

Additional observations from a re-analysis of the deposited data

How the results depend on the processing

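Among the genes named by rule, no call changed direction under the alternatives tried, and no count of called members did. The signs of the other members were not compared gene by gene. Leaving out each library in turn gave 47 to 73 members lower at 3 months (47 without labelled PU.1 cKO replicate 2), 41 to 73 higher in CK-p25 minus CK (41 without CK replicate 2), 59 to 74 higher in CK-p25 PU.1 cKO minus CK, and 0 in CK-p25 PU.1 cKO minus CK-p25. Over all genes the same fits gave, in that order, 889 to 2678 lower, 1385 to 2376 higher and 1455 to 2647 higher. Between the CK-p25 groups they gave 0 to 13 higher and 0 to 14 lower. With all libraries the numbers over all genes were 1925, 1922, 1937 and 0. Fitting only the compared groups gave 46 members higher in CK-p25 minus CK and 74 in CK-p25 PU.1 cKO minus CK. Without the filter the counts were 71, 55 and 68 in the 3 comparisons with called members, and after quantile normalization 73, 53 and 68. Over all genes, quantile normalization gave 1853 lower, 1634 higher and 1702 higher in them. The members' median log2 difference was then -1.43, 0.81 and 1.13, against -1.69, 1.06 and 1.32 in the main fits. The share of all calls that were higher was 41.1%, 56.3% and 57.2% in the 3 comparisons, 51.0%, 53.6% and 52.2% after median centring, and 53.0%, 45.6% and 45.9% after quantile normalization. The members' share of summed FPKM in CK was 1.62%, and 1.75% without small RNAs and gene models. With the replicate number as a block (replicate block), 74 members were lower at 3 months, 58 were higher in CK-p25 and 70 in CK-p25 PU.1 cKO, each against CK, and 0 passed between the CK-p25 groups. Numbers over all genes are not reported here for the block, for the fits without the filter or for those of only the compared groups. Deviations from the group means correlated at -0.049 to 0.166 between same-numbered libraries of different groups. Between libraries with different numbers they correlated at -0.264 to 0.154. These ranges overlap, so a pairing by number was neither shown nor excluded. FPKM carries no depth, so no counting interval can be given.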

Other observations

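Among 17 regulators of ribosome supply, Eif4ebp1, a translation repressor that mTOR switches off, was higher in CK-p25 and in CK-p25 PU.1 cKO than in CK (log2 differences 1.10 and 1.09), and Eef2k, the kinase that slows elongation, was lower in both (-1.17 and -1.12). At 3 months Myc and Eif4ebp1 were lower in labelled PU.1 cKO libraries (-1.69 and -1.17) and Rptor was higher (2.19 ± 0.43). Calls in either direction numbered 3 of 17 at 3 months (17.6%), 5 of 17 in CK-p25 (29.4%) and 3 of 17 in CK-p25 PU.1 cKO (17.6%). Over all genes the shares called were 30.1%, 31.3% and 31.1%, so the list was not called more often than genes at large.

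Of 9 integrated stress response genes tested at 4.5 months, Trib3, Asns, Ddit3 and Eif2ak2 were higher and Eif2ak3 lower in both CK-p25 groups, each against the same CK libraries, or 55.6% of the list in each, against 31.3% of all genes in CK-p25 and 31.1% in CK-p25 PU.1 cKO. Asns, which makes asparagine, had log2 differences of 1.61 in CK-p25 PU.1 cKO and 1.57 in CK-p25. At 3 months Asns was lower in labelled PU.1 cKO libraries (-2.90 ± 0.34), one of 2 genes of 10 called, with Chac1, a share of 20% against 30.1% of all genes.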
